A study of Mus musculus with 20 samples.

Results

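The genes described here are 33 mouse genes of glucose uptake, glycolysis, lactate handling, pyruvate entry into mitochondria and the pentose phosphate pathway. The rule takes them by name as pathway members and applies no threshold on measured values, although the list was drawn up with earlier results of these data known, and all 33 were found among the 46603 gene identifiers of the count table. Each of the 33 passed the filter on low counts in every set of libraries fitted. RNA was sequenced in 20 libraries that fall into 10 groups of 2.

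The 8 melanoma libraries were made from B16F10, an established mouse line grown in DMEM with puromycin and carrying either a control genotype (Ctrl) or a Ccdc101 KO (Ccdc101 is now named Sgf29). Both melanoma genotypes received thapsigargin (TG), which blocks the SERCA calcium pumps of the endoplasmic reticulum, at 50 ng/mL for 8 hours, or the DMSO vehicle. The T cell libraries, 12 in number, were of OT-I/Cas9 CD8 T cells, whose receptor recognises an ovalbumin peptide and which express the Cas9 nuclease. T cells were cultured in RPMI with IL-2 at 10 ng/mL, IL-7 at 0.5 ng/mL, IL-15 at 1 ng/mL, betamercaptoethanol and puromycin. Ctrl T cells were kept resting or were activated for 24 hours on plates coated with anti-CD3 at 2.5 µg/mL, and both states received TG, at the same 50 ng/mL for 8 hours, or DMSO. T cells with an Atp2a2 KO, the gene of SERCA2, received DMSO only and were labelled resting or activated. The labels do not say whether a KO line was 1 clone or a pool, or whether the 2 libraries of a group came from separate cultures, so the p values cover the spread between these libraries, which may be technical. Medium, cytokines and puromycin dose differ between melanoma and T cells and cannot be told apart from cell type. In bulk RNA, fewer cells of a kind and less RNA per cell cannot be told apart either.

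Glycolysis splits glucose into pyruvate. Transporters such as Slc2a1 (GLUT1) let glucose in, hexokinases trap it as glucose 6-phosphate, phosphofructokinase commits it, and the payoff enzymes from Gapdh to Pkm make ATP. Lactate dehydrogenase turns pyruvate into lactate, which leaves through monocarboxylate transporters, whereas pyruvate dehydrogenase sends it to the mitochondria unless its kinases (Pdk) switch it off. The pentose phosphate pathway draws off glucose 6-phosphate to make NADPH and ribose. Melanoma cells and activated T cells are both known for high glycolysis with lactate release.

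Depth ranged from 9985311 to 17462770 counts per library. The targeted genes were checked first, although an edited gene can go on being transcribed and the edited positions are not given in the labels. Sgf29 was 27.9 and 26.4 CPM (counts per mega-count of the library, with library totals scaled by the trimmed mean of M values) in Ctrl melanoma with DMSO and 18.2 and 17.4 in the KO (log2 change -0.59 ± 0.085 SE, adjusted p = 6.6e-07). Atp2a2 was 682 and 704 CPM in activated Ctrl T cells and 453 and 452 in activated Atp2a2 KO cells (-0.63 ± 0.034 SE, adjusted p = 9.2e-23). Resting Ctrl T cells had 239.5 and 241 CPM of Atp2a2, whereas the libraries labelled resting Atp2a2 KO had 466 and 463. The labelled resting KO libraries lay close to the activated KO libraries: 0.469% of 13432 genes were higher and 0.119% lower in the activated ones, a comparison added after the data were seen. They go against their label in this respect, so they are called labelled resting throughout. Leaving them out of the T cell fit ended 1 member call, that of Pfkfb3 for Atp2a2 KO in activated cells (adjusted p up to 0.2 over the alternatives). All 7 melanoma markers were counted in melanoma, where they summed to between 10316 and 16142 CPM, and in T cell libraries they summed to at most 7.80 CPM. The 8 CD8 T cell markers summed to between 3808 and 9156 CPM in T cells and to at most 7.70 CPM in melanoma. Markers of other cell types were low, the endothelial list being highest in T cells (18 to 97.0 CPM summed, with Cdh5 at 0).

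Promoter sequences are shown for the members that carried the hypoxia-response core ACGTG before the start site and whose mRNA was called with TG in both melanoma genotypes and both T cell states. Capitals mark ACGTG on either strand, so a match on the other strand reads CACGT and the palindrome CACGTG, the E-box bound by MYC and related factors, counts on both. Each stretch runs 10 bases beyond the outermost matches, is written 5′ to 3′ on the gene's strand, and comes from RefSeq on GRCm38.p6.
Ldha (chr7:46845649-46845784, plus strand, 155 to 20 bases before the start site): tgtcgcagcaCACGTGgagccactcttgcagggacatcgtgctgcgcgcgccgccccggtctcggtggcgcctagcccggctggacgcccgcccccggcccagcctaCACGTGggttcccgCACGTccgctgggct
Hk2 (chr6:82774492-82774690, minus strand, 236 to 38 bases before the start site): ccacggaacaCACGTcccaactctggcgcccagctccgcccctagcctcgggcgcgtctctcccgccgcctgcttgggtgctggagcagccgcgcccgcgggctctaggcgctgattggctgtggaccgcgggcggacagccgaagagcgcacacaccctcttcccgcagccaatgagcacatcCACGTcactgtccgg
Slc16a1 (chr3:104638454-104638479, plus strand, 210 to 185 bases before the start site): ggcgccgggtCACGTGgcgggaaggg
Pgam1 (chr19:41911747-41911771, plus strand, 124 to 100 bases before the start site): ctccttgcttACGTGcgctccgtga
Pkm (chr9:59657142-59657166, plus strand, 85 to 61 bases before the start site): ccgatccggtCACGTccgcgccgca
Pdk2 (chr11:95041482-95041507, minus strand, 136 to 111 bases before the start site): cgaggagagcCACGTGtcgaagcgca

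RefSeq windows from 250 bases before to 50 after the start were matched by symbol for 32 of the 33 members (all but Slc2a3), with 47 windows in all, because some genes have several starts whose windows can overlap. ACGTG stood in 42.6% of these 47 windows and in 19.6% of the 32851 windows of the table. The core with G in front, GCGTG, stood in 55.3% against 32.4%, and the E-box CACGTG, which contains ACGTG, in 10.6% against 7.15%. TGATGNAA, the ATF4 and CHOP composite element, was in 0 member windows and in 3.97% of all. The endoplasmic reticulum stress element, CCAAT followed by any 9 bases and CCACG, was in 0 member windows and in 0.119% of all. 1 of the 2 Ldha windows held 2 E-boxes, and the Eno2 window held none of the motifs searched. These are letter matches on both strands, not measured binding.

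In vehicle-treated cells the members took up 1.17% of all counts in both Ctrl melanoma libraries, between 1.80% and 1.82% in resting T cells and 1.76% in activated T cells. With TG they took up between 0.786% and 0.793% in Ctrl melanoma, between 1.48% and 1.5% in resting T cells and between 1.34% and 1.36% in activated T cells. To compare genes, CPM were divided by the exon length in kilobases. That length joins all annotated exons of a gene, such as 4133 bases for Gapdh and 13401 for Pfkp, whichever transcript the cells made. Orders of genes therefore depend on it, and the SD given does not cover this. Per kilobase, Aldoa, which cleaves fructose 1,6-bisphosphate, led in Ctrl melanoma at 521 ± 5.85 CPM per kb (SD, n = 2 throughout), ahead of Ldha at 439 ± 8.01 and Pkm, the last enzyme of glycolysis, at 373 ± 6.80. In resting T cells the same leading genes stood at 1113 ± 17.9, 772 ± 23.3 and 532 ± 1.85 CPM per kb, each further from the next than their SD. After activation Ldha at 812 ± 7.10 stood above Aldoa at 732 ± 2.37. In melanoma Tpi1 (234 ± 1.69) and Eno1 (229.6 ± 10.7) did not differ beyond their spread, nor did G6pdx (54.3 ± 2.58) and Taldo1 (52.2 ± 0.432). In resting T cells Gpi1 (235 ± 2.91) and Eno1 (232 ± 6.25) overlapped within their SD. At the low end were Pdk2 in melanoma (0.105 ± 0.0717 CPM per kb) and Eno2 in resting T cells (0.538 ± 0.139).

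The mix of isoenzyme mRNAs differed between the cell types. These shares are descriptions with SD over 2 libraries, and their sizes depend on the exon lengths used. Of the summed CPM per kb of Slc16a1 (MCT1) and Slc16a3 (MCT4), the lactate carriers, Slc16a3 made up 1.04% ± 0.223 in Ctrl melanoma, 73.7% ± 1.73 in resting T cells and 64.2% ± 0.444 in activated T cells with DMSO. Among the phosphofructokinase genes Pfkp made up 13.6% ± 0.00109 in melanoma and 52.6% ± 0.0169 in resting T cells, whereas the muscle form Pfkm made up 40.8% ± 0.771 and 7.97% ± 0.185. Some shares differed between TG and DMSO by more than these SD, while others, such as Slc2a1 among the glucose transporters of resting T cells (55.6% ± 1.23 with DMSO and 55.5% ± 0.641 with TG), did not. Hk2 went from 67.3% ± 1.02 to 85.1% ± 0.504 of the Hk1 and Hk2 sum in Ctrl melanoma, but from 43.7% ± 0.203 to 41.2% ± 0.704 in resting and from 70.6% ± 0.0948 to 64.5% ± 0.687 in activated T cells. Eno2 went from 0.486% ± 0.0429 to 11.1% ± 0.463 of the enolases in Ctrl melanoma and from 1.11% ± 0.109 to 8.77% ± 0.0928 in the KO. Pfkp went from 52.6% ± 0.0169 to 68.7% ± 0.947 of its family in resting T cells.

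**Figure D1:**
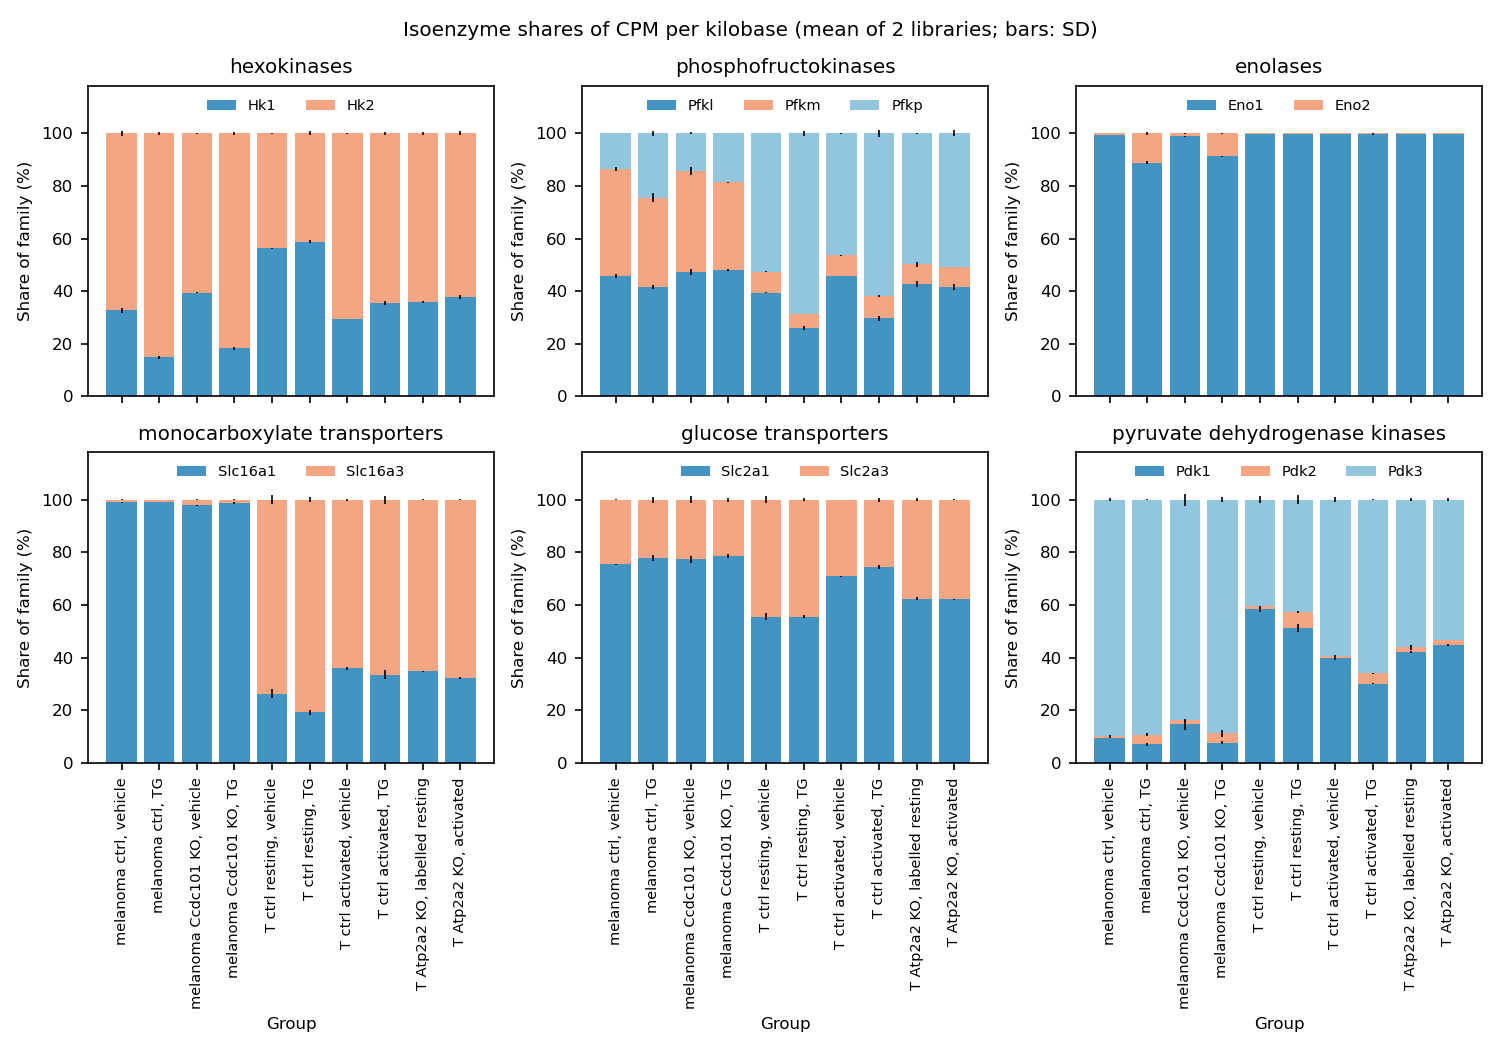
Share of each isoenzyme gene in the summed CPM per kilobase of its family (vertical axis, %) in the 10 groups (horizontal axis). Stacked bars are means of 2 libraries with SD. Slc16a3 and Pfkp take larger shares in T cells than in melanoma, and the Eno2 share is widest in TG-treated melanoma.

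With TG, Ctrl melanoma cells had lower mRNA for most members from glucose phosphorylation to lactate release. Exceptions included Hk2, which rose, and Aldoa, which was not called. 20 of 33 members fell and 7 rose, against 36.1% and 35.7% of the 12540 genes tested. The members' median log2 change was -0.32 and that of all genes -0.0008. All 4 lactate genes fell, 2 of 3 phosphofructokinases, 5 of 7 payoff genes (a group in which Bpgm is counted), and both glucose transporters. Slc16a3, the lactate exporter MCT4, is the least secure of these: at 3.10 and 2.25 and then 1.55 and 1.60 CPM, its call was lost with DESeq2 or without Ctrl DMSO replicate 1 or either TG library (adjusted p up to 0.22). The 6 members not called were Pfkp, Aldoa, Bpgm, Pfkfb3, Tigar and Pdk3, with log2 changes from -0.079 to 0.13. Calls throughout were made at a Benjamini-Hochberg adjusted p under 0.05 from edgeR's quasi-likelihood test over the whole table.

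Ldha (chr7:46841475-46855627, plus strand, on GRCm38 as are all positions below) encodes the A subunit of lactate dehydrogenase. It was at 1472 and 1435 CPM in the DMSO libraries and 681 and 676 with TG. Both TG libraries lay below both DMSO libraries, 2.13-fold lower on average (-1.09 ± 0.029 SE, adjusted p = 3e-31). Separation of 2 libraries from 2 is weak evidence by itself, here and below. Ldhb, the B subunit, went from 46.5 and 46.1 to 12.4 and 17.1 CPM (-1.64 ± 0.091 SE, adjusted p = 2.7e-19). Its groups did not overlap either, and it was the steepest fall among the members in these cells. Eno1, which makes phosphoenolpyruvate, went from 1276 and 1194 to 597 and 587 CPM (-1.06 ± 0.032). Falls of similar size were measured for Pfkm (-1.18 ± 0.068) and Pfkl (-1.06 ± 0.049), for Pgam1 (-1.03 ± 0.057), which shifts the phosphate of 3-phosphoglycerate, and for Gpi1 (-0.96 ± 0.034). Aldoa, the main aldolase, was not called: 1503 and 1527 CPM with DMSO and 1495 and 1493 with TG.

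Several members went the other way. Eno2 (chr6:124760053-124769673, minus strand), the enolase best known from neurons, was at 5.11 and 5.42 CPM with DMSO and 63.2 and 66.4 with TG (3.63 ± 0.094 SE, adjusted p = 1.1e-31). That is a 12.4-fold rise with no overlap, although Eno1 still made up most of the enolase mRNA. Hk2 (chr6:82725025-82774454, minus strand), the inducible hexokinase, was at 136 and 128 and then 228 and 236 CPM (0.82 ± 0.041 SE, adjusted p = 2.7e-21). Its constitutive relative Hk1 moved in the opposite direction, from 91.5 and 91.8 to 58.6 and 57.3 CPM (-0.65 ± 0.053). G6pdx, the entry enzyme of the pentose phosphate pathway, rose by 0.29 ± 0.041 while Tkt, a transketolase of its non-oxidative arm, fell from 379.8 and 375 to 193 and 185 CPM (-0.99 ± 0.037). Pdk2, a kinase that switches off pyruvate dehydrogenase, was at 0.172 and 0.493 CPM with DMSO, which rests on 10 counts in the 2 libraries, and 2.55 and 2.04 with TG (2.83 ± 0.45). Pfkfb4, which sets fructose 2,6-bisphosphate, was raised as well (0.58 ± 0.16), and so was Pdha1, a subunit of pyruvate dehydrogenase (0.25 ± 0.041).

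In the Ccdc101 KO the response to TG had much the same shape: 19 members fell and 8 rose, against 36.3% and 34.1% of all genes, with a median of -0.18 beside -0.020. Ldha was at 1497 and 1571 CPM with DMSO and 780.1 and 809 with TG (-0.95 ± 0.029), again without overlap. Neither glucose transporter was called in the KO. Slc2a1 was at 66.0 and 63.5 CPM without and 69.5 and 67.6 with TG. Slc2a3 (GLUT3) was at 37.9 and 40.5 without and 38.1 and 39.6 with TG, with overlapping groups. The 2 melanoma genotypes were compared by an interaction term, the TG effect in the KO minus that in Ctrl. It was called above 0 for 12 members and called below 0 for 3, against 7.16% and 5.95% of all genes. Among the called members Eno2 had the widest gap (-1.33 ± 0.15 SE, adjusted p = 9.3e-09). In the KO it was at 11.7 and 10.7 CPM with DMSO and 53.7 and 56.8 with TG. Pfkp (-0.52 ± 0.072) and Pdk1 (-0.53 ± 0.18) had lower effects in the KO, but the difference for Pdk1 was lost with DESeq2 and without any one of 6 of the 8 libraries (all but KO DMSO replicate 1 and KO TG replicate 2; adjusted p up to 0.32). Slc2a3 (0.41 ± 0.10), Tkt (0.40 ± 0.052) and Pgd (0.33 ± 0.055), the decarboxylating enzyme of the pentose pathway, had higher effects in the KO, that for Slc2a3 not being called with DESeq2 (adjusted p = 0.095). The other 9 called differences were between 0.14 and 0.31.

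**Figure D2:**
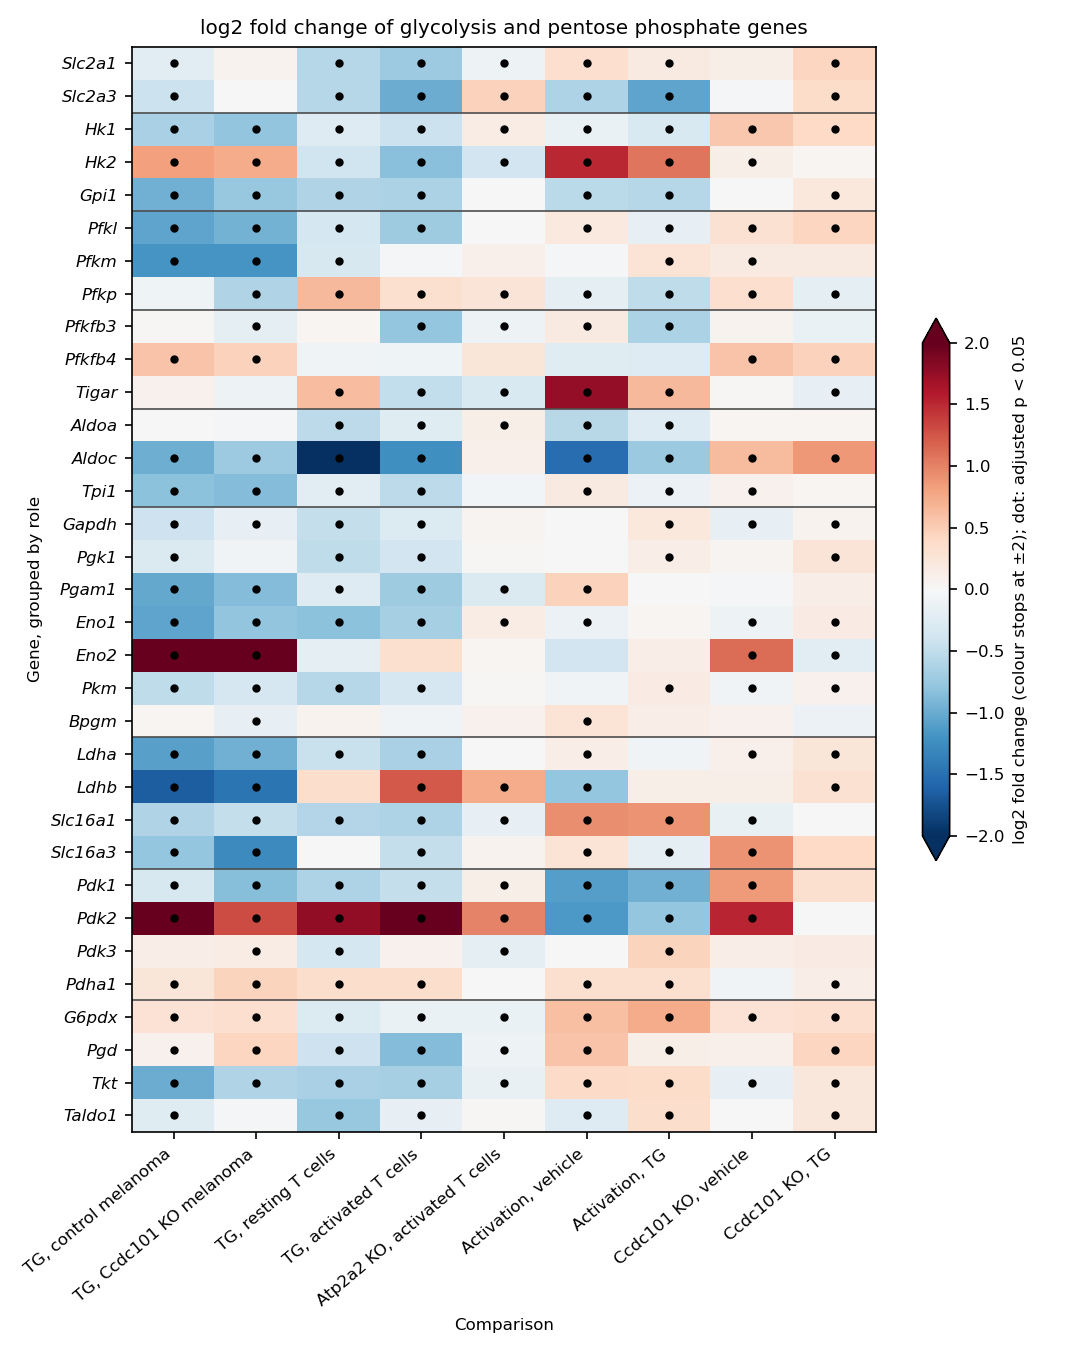
log2 fold change (colour, limited to ±2) of the 33 members (rows, grouped by role) in 9 comparisons (columns). A dot marks an adjusted p below 0.05. Blue fills most of the 4 TG columns, with Eno2, Hk2 and Pdk2 among the exceptions in melanoma and Pfkp and Pdk2 in T cells.

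Resting T cells given TG also had less mRNA for most members. 23 fell and 4 rose, against 35.2% and 34.1% of 13432 genes, and the median was -0.35 beside 0.0064 for all genes. Aldoc, a minor aldolase in these cells, was at 169.7 and 157 CPM with DMSO and 39.4 and 42.8 with TG. The TG libraries were 4.03-fold lower and well apart from the DMSO libraries (-2.01 ± 0.058 SE, adjusted p = 9.5e-37). Eno1 fell from 1273 and 1226 to 707 and 726 CPM (-0.82 ± 0.035), and Taldo1, the transaldolase, from 169 and 166 to 96.2 and 105 (-0.75 ± 0.046). Both groups of each gene were separate. Slc2a1 and Slc2a3, which bring glucose in, fell by 0.57 ± 0.038 and 0.57 ± 0.035 on the log2 scale. Unlike in melanoma, Aldoa fell here, from 3277 and 3204 to 2245 and 2284 CPM (-0.53 ± 0.031). Bpgm, Eno2, Ldhb, Pfkfb3, Pfkfb4 and Slc16a3 were not called.

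The 4 members that rose in resting T cells were Pfkp, Tigar, Pdk2 and Pdha1. Pfkp (chr13:6579768-6648777, minus strand), the platelet-type phosphofructokinase, was at 1029 and 1038 CPM with DMSO and 1648 and 1605 with TG (0.64 ± 0.032 SE, adjusted p = 3.7e-25). Tigar, which lowers fructose 2,6-bisphosphate and so favours the pentose pathway, was at 24.3 and 27.6 with DMSO and 40.3 and 39.7 with TG (0.62 ± 0.078). Pdk2 went from 2.99 and 3.25 to 10.4 and 11.2 CPM (1.78 ± 0.19), yet stayed a small part of the Pdk mRNA next to Pdk1, which fell from 352 and 345 to 224 and 235 (-0.61 ± 0.039). None of these groups overlapped.

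In activated T cells 24 members fell with TG and 4 rose, against 32.4% and 32.6% of all genes. The members' median was -0.47 beside 0.0080. Hk2 went from 809 and 804 to 458 and 458 CPM (-0.84 ± 0.034 SE, adjusted p = 3.8e-29). Slc2a3 was 2.00-fold lower, at 204 and 204 CPM with TG against 398 and 405 (-1.0 ± 0.037). Pgd fell from 270.2 and 277 to 154 and 149.9 (-0.87 ± 0.041), and Pfkfb3, the main maker of fructose 2,6-bisphosphate in proliferating cells, from 122 and 122 to 69.8 and 75.0 (-0.77 ± 0.048). In each case both TG libraries were below both DMSO libraries. Pfkp (0.32 ± 0.032), Pdha1 (0.35 ± 0.039) and the low genes Pdk2 (2.14 ± 0.24) and Ldhb (1.23 ± 0.29, at 3.99 and 2.87 CPM with TG) rose. Bpgm, Eno2, Pdk3, Pfkfb4 and Pfkm were not called.

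A difference in TG effect between activated and resting T cells was called for 23 members. The called interaction was positive for 10 and negative for 13, against 26.7% and 25.2% of all genes. Tigar had the widest called difference (-1.11 ± 0.10 SE, adjusted p = 6.3e-15): it rose with TG in resting cells and fell in activated cells, from 83.2 and 85.8 to 60.3 and 61.7 CPM. Pfkfb3 (-0.82 ± 0.067) fell in activated cells and was not called in resting cells, at 112 and 111 CPM with DMSO and 117 and 116 with TG. Slc16a3, not called in resting cells, had an interaction of -0.47 ± 0.053, and Pgam1 fell further in activated than in resting cells (-0.45 ± 0.072). Aldoc (0.78 ± 0.10) and Taldo1 (0.60 ± 0.064) fell less in activated cells. The other 17 called differences ran from -0.45 to 0.44.

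**Figure D3:**
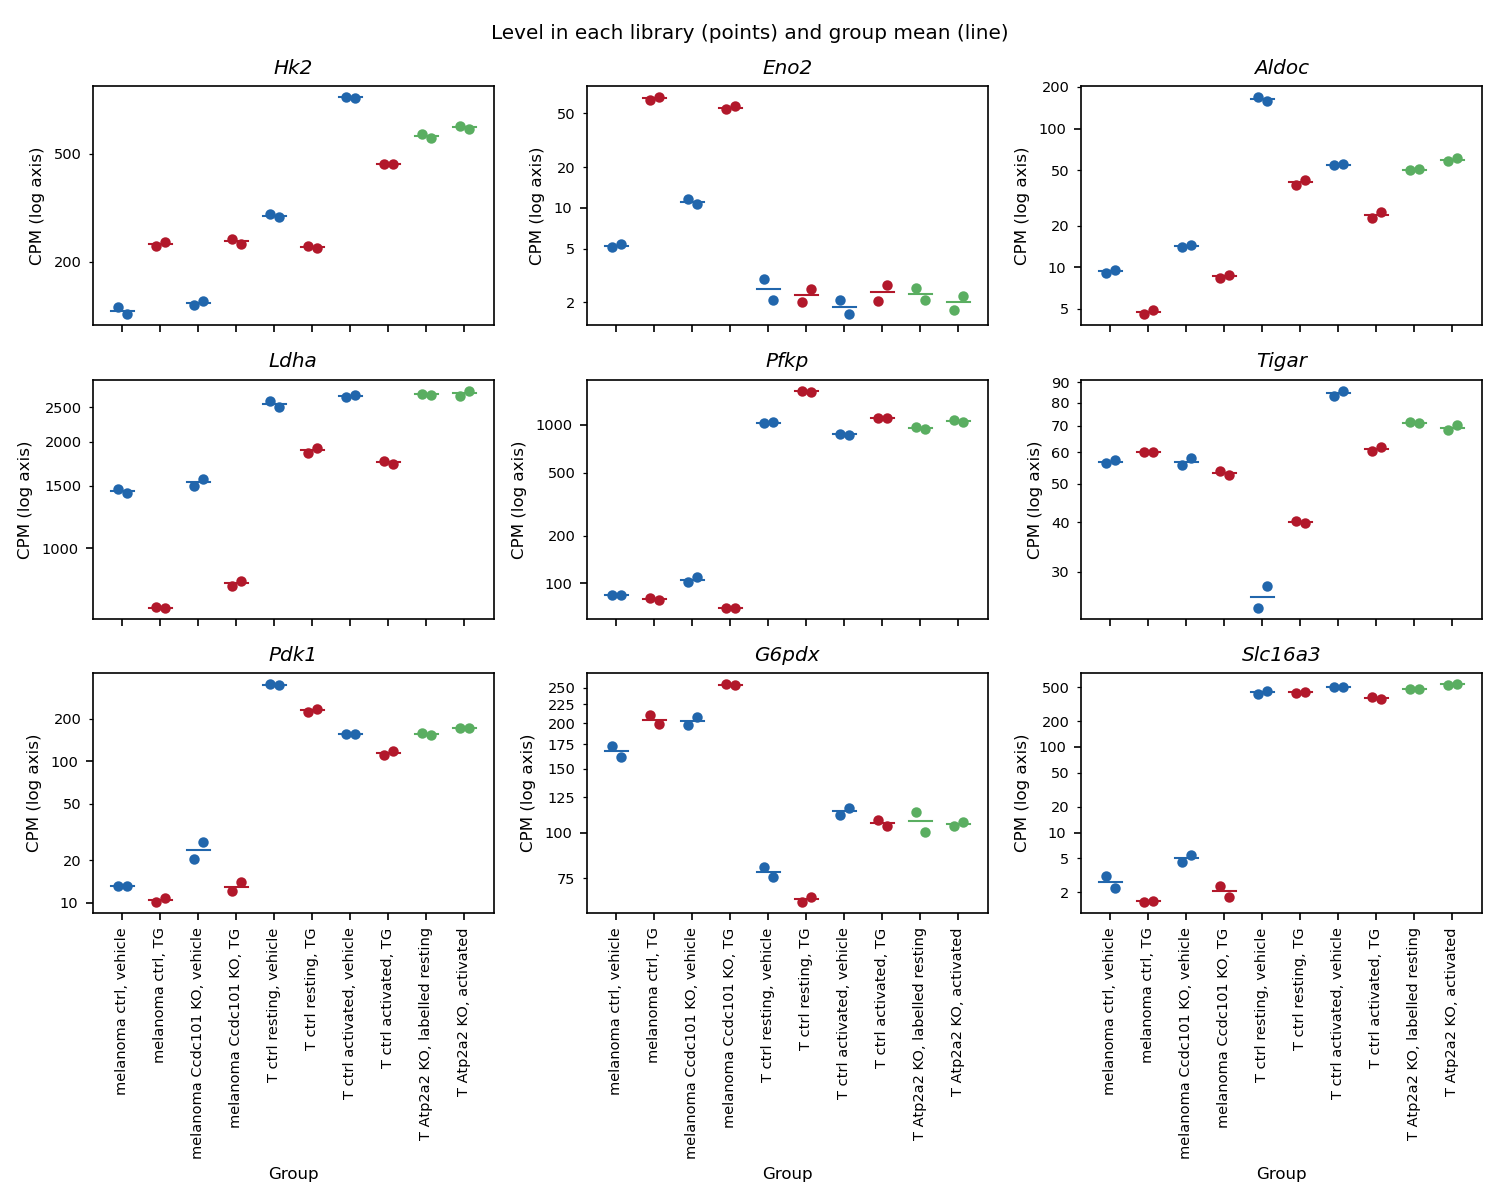
CPM on a log axis (vertical) of 9 members in every library (points) with the group mean (line), for the 10 groups (horizontal). Red points are TG, blue points DMSO with Ctrl or Ccdc101 KO, and green points Atp2a2 KO T cells. Hk2 is higher with TG in melanoma and lower with TG in T cells, and the labelled resting Atp2a2 KO points lie near the activated ones for Hk2, Tigar, Aldoc and Pdk1.

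13 members fell with TG in all 4 settings, that is in both melanoma genotypes and in resting and activated T cells: Hk1, Gpi1, Pfkl, Aldoc, Tpi1, Gapdh, Pgam1, Eno1, Pkm, Ldha, Slc16a1, Pdk1 and Tkt. Of 11195 genes tested in both cell types 13.8% did so. 2 members, Pdk2 and Pdha1, rose in all 4, as did 13.5% of genes. The 13 include a gene for every step from hexokinase to lactate export except that of Pgk1, though not always the main gene of the step. Hk1 made up 32.7% of the hexokinase and Aldoc 0.547% of the aldolase CPM per kb in Ctrl melanoma with DMSO. With TG, Hk2 rose there and Aldoa was not called, so mRNA for those steps as a whole did not fall with these 2 genes. In T cells Pfkl fell but Pfkp rose, and summed CPM of the phosphofructokinase genes did not fall. That sum went from 1458 ± 10.5 (SD) to 1964 ± 21.3 in resting and from 1334 ± 17.9 to 1406 ± 19.6 in activated cells. Slc16a3, the larger share of the lactate carriers in resting T cells, was not called there. Ldha fell by between 1.36-fold (resting T cells) and 2.13-fold (Ctrl melanoma), and Slc16a1 by between 1.39-fold and 1.53-fold. Gapdh, often used as a reference gene, fell by between 1.12-fold and 1.39-fold. 12 of the 13 kept these calls under every alternative run, the exception being Pdk1, whose call in Ctrl melanoma was lost with DESeq2 and without any one of the 4 libraries compared (adjusted p up to 0.17). The rise of Pdk2 in the KO was lost without replicate 1 of the TG group (adjusted p = 0.083).

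Hk2, G6pdx and Pgd rose with TG in both melanoma genotypes and fell in both T cell states, as did 1.97% of the 11195 genes. 0 members did the reverse, against 2.55% of genes. Hk2 was the clearest, called in all 4 settings under every alternative run, with levels of 136 and 128 against 228 and 236 CPM in Ctrl melanoma and 299 and 292 against 228 and 224 in resting T cells. Pgd in Ctrl melanoma (187 and 189 against 205 and 194 CPM) lost its call with DESeq2, without the filter, with the replicate term, in a fit of its own groups, or without replicate 1 of either group (adjusted p up to 0.55). G6pdx in activated T cells (112 and 117 against 108 and 104 CPM) lost it with DESeq2, with the 5 CPM filter and without replicate 2 of the DMSO group or either TG library (up to 0.23).

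The TG effects of Ctrl melanoma and T cells were set against each other in 1 fit of all 20 libraries. Against resting T cells the difference was called above 0 for 11 members and called below 0 for 13 (23.6% and 23.8% of 14824 genes). Against activated T cells the counts were 10 and 13 (21.6% and 21.8%). Eno2 was furthest apart among the called members, by 3.81 ± 0.32 against resting and 3.29 ± 0.31 against activated cells, and it stayed between 1.63 and 2.99 CPM in every T cell library. Hk2 differed by 1.20 ± 0.055 and 1.63 ± 0.052. Pfkm (-0.89 ± 0.11 and -1.19 ± 0.10) and Ldhb (-2.01 ± 0.29 and -2.90 ± 0.30) had lower effects in melanoma, though Ldhb was at most 3.99 CPM in any T cell library. Aldoc fell further in resting T cells (1.02 ± 0.18), while the effect on Slc16a3 was lower in melanoma (-0.80 ± 0.24), a call lost without Ctrl melanoma DMSO or TG replicate 1 (adjusted p up to 0.24). Against activated cells Pgd (0.93 ± 0.057) and Pfkfb3 (0.76 ± 0.089) were among the widest.

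**Figure D4:**
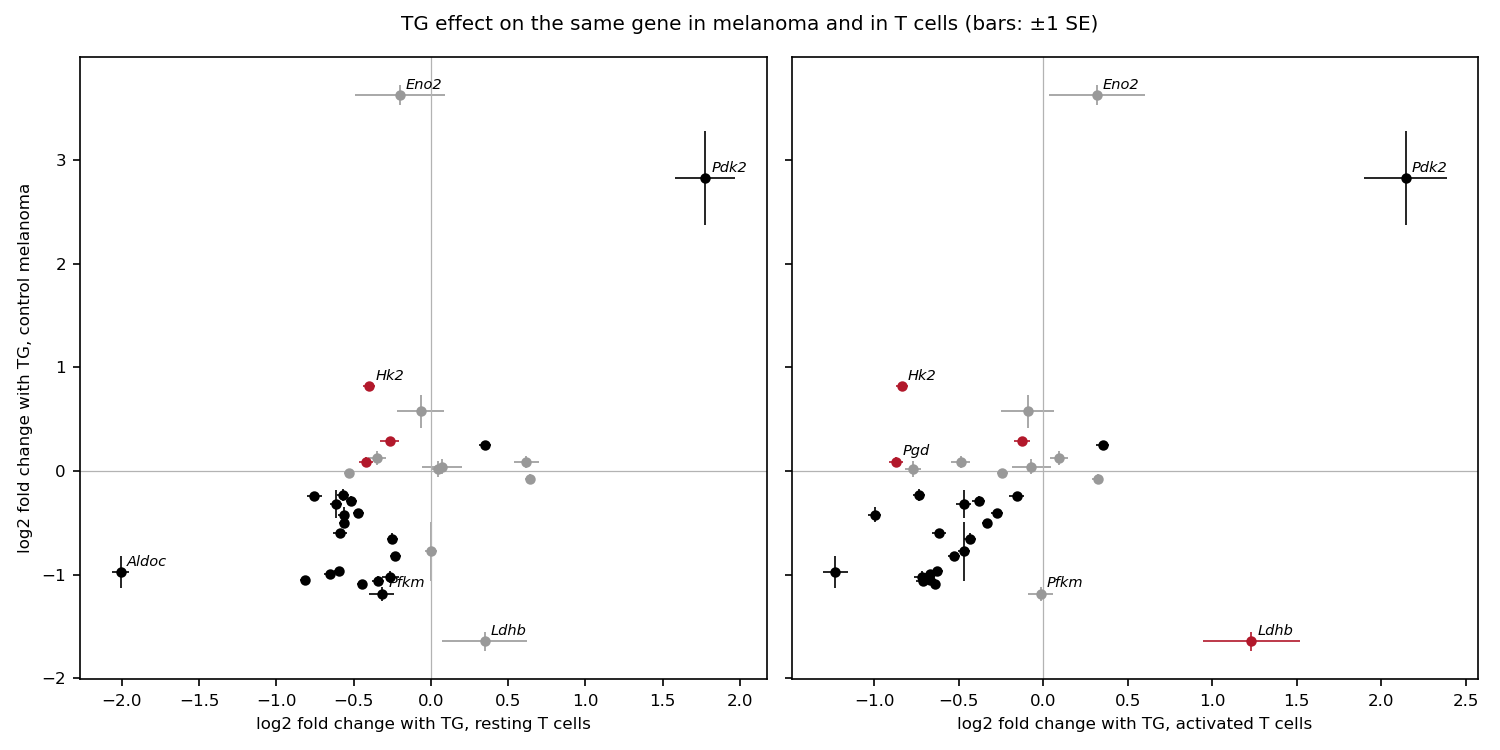
log2 fold change with TG in Ctrl melanoma (vertical) against that in resting (left) and activated (right) Ctrl T cells (horizontal), 1 point per member with ±1 SE. Black points were called in the same direction in both, red in opposite directions, and grey were not called in at least 1; names are shown where the effects differ by at least 0.85 or the melanoma change exceeds 2. Most black points are below 0 on both axes, Hk2 is red in both panels, and Eno2 stands at the top in grey.

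Activation of Ctrl T cells with anti-CD3 went with changes in both directions: 15 rose and 11 fell, against 35.3% and 39.1% of all genes, with medians of 0.0083 and -0.038. Tigar went from 24.3 and 27.6 to 83.2 and 85.8 CPM (1.76 ± 0.066 SE, adjusted p = 3.3e-31). Hk2 went from 299 and 292 to 809 and 804 (1.5 ± 0.035 SE, adjusted p = 7.9e-41), 2.83-fold up and with no overlap. Slc16a1, the lactate carrier MCT1, went from 132 and 125 to 232 and 238 CPM (0.92 ± 0.042), above the 213 and 211 of Ctrl melanoma. G6pdx (0.60 ± 0.053), Pgd (0.57 ± 0.040) and Tkt (0.38 ± 0.034) of the pentose pathway rose, while Taldo1 fell (-0.25 ± 0.043). Aldoc was the steepest fall, from 169.7 and 157 to 54.4 and 55.7 CPM (-1.52 ± 0.052 SE, adjusted p = 5.8e-33). Pdk1 fell from 352 and 345 to 156 and 157 (-1.10 ± 0.039), and Gpi1, Aldoa and Slc2a3 fell by 0.54, 0.55 and 0.62 on the log2 scale. Slc2a1 rose modestly, from 383 and 392 to 467 and 475 CPM, and Ldha by 0.13 ± 0.032. The payoff enzymes Gapdh, Pgk1 and Pkm were not called, with Pgk1 at 358 and 342 CPM in resting and 335 and 343 in activated cells.

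Activated and resting cells were also compared under TG. There 14 members rose and 12 fell (32.0% and 31.9% of all genes), with a median of 0.12 beside -0.0047. Hk2 (1.06 ± 0.037), Slc16a1 (0.90 ± 0.046) and Tigar (0.65 ± 0.065) were higher in the activated TG group, Slc2a3 (-1.05 ± 0.037) and Pdk1 (-0.96 ± 0.043) lower. Slc2a3 stood at 204 and 204 CPM in activated cells with TG, the lowest of the 6 T cell groups, with no overlap with any other.

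Loss of Atp2a2 is another way of reducing SERCA2, and activated T cells with the KO were compared with activated Ctrl cells. 8 members were higher and 10 lower in the KO, against 17.5% and 19.6% of all genes, with a median of 0.021 beside -0.0043. The count rests in part on single libraries: it was 11 instead of 18 without replicate 2 of the activated Ctrl group with DMSO. Slc2a3 was at 558 and 565 CPM in the KO and 398 and 405 in Ctrl (0.46 ± 0.035 SE, adjusted p = 1.2e-16). Hk2 was at 633 and 615 against 809 and 804 (-0.39 ± 0.033 SE, adjusted p = 1.9e-14). Tigar (-0.31 ± 0.052) and Pgam1 (-0.29 ± 0.045) were lower, Pfkp (0.26 ± 0.032) higher, and in none of these did the groups overlap. With 2 libraries a group such separation is weak evidence, here and in the other comparisons. Its share over all genes was not computed, so no count of separated members is given. Pdk2 (1.0 ± 0.28) and Ldhb (0.75 ± 0.30) were higher at levels under 3 CPM. Pdk2 lost its call without activated Ctrl replicate 2, and Ldhb with DESeq2, without the filter, in a fit of its own groups, and without activated Ctrl replicate 1 or either KO library. Ldha was not called (2689 and 2791 against 2671 and 2704 CPM), nor were Pfkl, Gpi1, Gapdh, Pgk1 and Pkm.

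TG-treated activated cells were then compared directly with activated Atp2a2 KO cells, which differ in genotype and drug together. 24 members were lower with TG and 3 higher, against 30.0% and 30.5% of all genes (median -0.42 beside -0.0008). Slc2a3 was 2.75-fold lower with TG (-1.46 ± 0.037 SE, adjusted p = 1.1e-38), Aldoc 2.51-fold and Eno1 1.76-fold. Pdk2 (1.14 ± 0.21), Pdha1 (0.36 ± 0.039) and Pdk3 (0.30 ± 0.056) were higher with TG. Hk2 lay 0.45 lower on the log2 scale, at 458 and 458 CPM against 633 and 615.

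The libraries labelled resting Atp2a2 KO had 11 members higher and 9 lower than resting Ctrl cells (33.7% and 35.9% of all genes; median 0.049 beside -0.022). Against activated Ctrl cells 5 were higher and 12 lower (15% and 16.6%; median -0.064 beside -0.0089). Tigar, at 71.6 and 70.9 CPM, was 1.52 above resting and 0.24 below activated Ctrl on the log2 scale. Hk2 at 591 and 572 CPM differed from them by 1.03 and -0.47, and Aldoc at 50.1 and 50.9 by -1.64 and -0.12, the last of which was not called. Between the activated and the labelled resting KO libraries 4 members were higher and 0 lower by edgeR, against 0.469% and 0.119% of all genes. DESeq2 gave 2 and 0. At an unadjusted p below 0.05 edgeR had 12 and 0, for which the all-gene share was not computed. The members called by edgeR were Slc2a1, Slc2a3, Hk1 and Slc16a3, by 0.16 to 0.20. All 4 lost their calls without labelled resting replicate 2. Why these libraries lie near the activated ones was not tested.

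Ccdc101 KO melanoma had more members higher than lower. With DMSO 14 were higher and 5 lower than in Ctrl, against 12.4% and 13.3% of all genes, and the median was 0.10 beside 0.0031. With TG the counts were 18 and 3, against 16.6% and 15% (median 0.19 beside 0.011). DESeq2 called 10 in place of 19 members with DMSO and 13 in place of 21 with TG. The 5 lower members with DMSO were 3 payoff genes, 1 lactate gene and 1 pentose phosphate gene. With DMSO, summed CPM of the payoff genes was 4659 ± 27.1 (SD) in Ctrl and 4310 ± 143 in the KO. Summed over all members it was 10821 ± 59.0 in Ctrl and 10708 ± 319 in the KO, which overlap within their SD. Hk1 was at 128 and 134 CPM in the KO and 91.5 and 91.8 in Ctrl (0.54 ± 0.045 SE, adjusted p = 1.4e-12). Aldoc was higher both without (0.63 ± 0.12) and with TG (0.87 ± 0.16), and Pfkl likewise (0.31 ± 0.042 and 0.42 ± 0.052). Their groups were apart under both treatments. Eno2 was 2.16-fold higher in the KO with DMSO (1.11 ± 0.13 SE, adjusted p = 1.7e-08) but lower with TG (-0.22 ± 0.062), a call lost with DESeq2 or without Ctrl TG replicate 2 or KO TG replicate 1 (adjusted p up to 0.15). Among DMSO libraries, Pdk1 was higher in the KO, at 20.2 and 26.9 CPM against 13.2 and 13.1 in Ctrl (0.85 ± 0.11). Slc16a3 was at 4.49 and 5.54 CPM in the KO against 3.10 and 2.25 in Ctrl (0.89 ± 0.21), a call that DESeq2 did not make (adjusted p = 0.09). With TG, Pgd (0.43 ± 0.039), Slc2a1 (0.43 ± 0.058), Slc2a3 (0.37 ± 0.075) and G6pdx (0.33 ± 0.040) were higher in the KO.

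With DMSO, Ctrl melanoma had lower CPM than T cells for most members. 22 were lower and 7 higher than in resting T cells (43.0% and 40.8% of all genes; median -0.75 beside -0.035). 26 were lower and 6 higher than in activated T cells (43.7% and 39.0%; median -0.57 beside -0.088). Slc16a3 was at 3.10 and 2.25 CPM in melanoma and 417 and 449.6 in resting T cells (-7.31 ± 0.073 SE, adjusted p = 4.1e-76). Pdk1 was at 13.2 and 13.1 in melanoma and 352 and 345 in resting T cells (-4.73 ± 0.062), and Pfkp and Slc2a3 were 12.2-fold and 15.7-fold lower in melanoma. No library of one cell type reached the other for these 4 genes. Ldhb (4.20 ± 0.14), Bpgm (1.84 ± 0.095), the 2,3-bisphosphoglycerate mutase, and G6pdx (1.10 ± 0.050) were higher in melanoma. Gapdh was not called against either T cell state, with 1198 and 1187 CPM in melanoma, 1249 and 1199 in resting and 1185 and 1195 in activated T cells.

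A wider list of 64 other glucose, fructose, galactose, pentose and pyruvate genes was counted as well. Of 45 tested in Ctrl melanoma 26 fell and 10 rose (median -0.31), against 36.1% and 35.7% of all genes. In the KO 26 fell and 11 rose, against 36.3% and 34.1%. Of 42 tested in T cells 20 fell and 13 rose in resting cells (median -0.18), against 35.2% and 34.1% of all genes. In activated cells 17 fell and 11 rose (median -0.078), against 32.4% and 32.6%. In activation with DMSO 21 rose and 16 fell, against 35.3% and 39.1%. The rises with TG in resting cells and the falls with activation are thus near the all-gene shares. Slc2a6, a glucose transporter family member, was at 18 and 17.4 CPM in Ctrl melanoma with DMSO and 109 and 109 with TG (2.62 ± 0.065 SE, adjusted p = 2.1e-32), and rose with activation from 7.96 and 6.5 to 74.7 and 75.8 CPM (3.42 ± 0.090). Pgm3 (1.98 ± 0.079), which feeds hexosamine synthesis, rose in Ctrl melanoma with TG, and Prps2 (-1.84 ± 0.084), which makes the ribose donor of nucleotides, fell. Rpia, the ribose 5-phosphate isomerase, fell in resting (-1.05 ± 0.069) and activated (-1.01 ± 0.062) T cells, as did Galk1 (-0.96 ± 0.057 and -1.05 ± 0.052).

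Known regulators of these genes were counted from a list of 23. With TG 11 of 19 tested rose and 6 fell in Ctrl melanoma, against 35.7% and 36.1% of all genes. Of 20 tested in T cells 10 rose and 9 fell in resting cells, against 34.1% and 35.2%. In activated cells 6 rose and 11 fell, against 32.6% and 32.4%. The falls in Ctrl melanoma and the rises in activated T cells are near the all-gene shares. Atf4, a factor of the stress response, rose by 1.85 ± 0.030 in Ctrl melanoma and 0.97 ± 0.037 in activated T cells. Txnip, which restrains glucose uptake, was at 30.5 and 33.2 CPM in Ctrl melanoma with DMSO and 97.7 and 117 with TG (1.77 ± 0.15 SE, adjusted p = 0.00023). In resting T cells it moved the other way, from 632 and 606 to 205 and 206 (-1.60 ± 0.038 SE, adjusted p = 6.2e-41), and activation lowered it as well (-2.35 ± 0.039). Epas1, which encodes HIF-2α and was at 34.8 and 32.2 CPM in resting T cells with DMSO, fell with TG in Ctrl melanoma (-1.69 ± 0.13), resting (-3.20 ± 0.13) and activated T cells (-4.63 ± 0.10). Hif1a rose with TG in resting T cells, from 656 and 657 to 1506 and 1551 CPM (1.21 ± 0.033). Whether these regulators bear on the members was not tested.

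Counting bears on some members more than on others. Reads shared with near-copies elsewhere in the genome are one limit: 13 members share at least 10% of their 50-base stretches with transcripts of other genes, led by Gapdh (82.5%), Eno1 (72.2%), Pgk1 (68.0%) and Pgam1 (41.5%), so their levels are uncertain. The strand setting of the counting is not given in the sources used here. Exons of Pdha1 overlap those of Map3k15 on the other strand over 16.1% of their bases, those of G6pdx overlap Ikbkg over 13.6% and those of Gpi1 overlap Gm26762 over 11.5%.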

How the data were processed

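Values are raw gene counts as deposited by the authors. Per the submitters' processing notes, the aligner was STAR (2.6.0c), the counter HTSeq and the build GRCm38/mm10. Annotation, strand setting, read filters and the HTSeq version are not given in the sources used here. Of 46603 Ensembl identifiers 46091 were named from GENCODE M21, and the rest held 0.0759% of the counts.

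Counts were fitted in R 4.3.3 with edgeR 4.0.16 (TMM scaling, default filterByExpr, robust quasi-likelihood tests, limma 3.58.1) on 8 melanoma (12540 genes, 4 residual degrees of freedom), 12 T cell (13432, 6) and all 20 libraries (14824, 10). P values were Benjamini-Hochberg adjusted over all genes tested, and calls were made below 0.05. Libraries of a group varied by a common coefficient of 2.71%, 2.80% and 2.77% in these 3 sets. Fold changes come from these fits; levels are CPM over all 20 libraries. SE is the log2 change over the square root of F. Depth of 9985311 to 17462770 counts gave every member more than 3 counts in each group. Named genes were any member in comparisons of 2 groups, up to 6 called members with the widest difference in comparisons of effects, up to 4 called genes of each of the other lists per comparison, and both targeted genes. Members and lists were chosen with earlier results of these data known. Alternatives were leaving out each library, a fit of the compared groups alone, T cells without the labelled resting KO, a replicate term, DESeq2 1.42.0, scaling by relative log expression, and either unfiltered genes or those above 5 CPM in 2 libraries. The comparison of the Atp2a2 KO groups was added after seeing the data. The scripts were tested on simulated counts.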

Additional observations from a re-analysis of the deposited data

Results flagged for a closer look

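Called members whose TG effect differed between settings by the test of the difference itself numbered 15, 23, 24 and 23 in the 4 comparisons below, of which the 6 widest are given with the log2 difference of the 2 effects. Between melanoma genotypes (Ccdc101 KO minus Ctrl) these were Eno2 (-1.33), Pdk1 (-0.53), Pfkp (-0.52), Slc2a3 (0.41), Tkt (0.40) and Pgd (0.33). Between T cell states (activated minus resting) they were Tigar (-1.11), Pfkfb3 (-0.82), Aldoc (0.78), Taldo1 (0.60), Slc16a3 (-0.47) and Pgam1 (-0.45). For Ctrl melanoma minus resting T cells they were Eno2 (3.81), Ldhb (-2.01), Hk2 (1.20), Aldoc (1.02), Pfkm (-0.89) and Slc16a3 (-0.80). For Ctrl melanoma minus activated T cells they were Eno2 (3.29), Ldhb (-2.90), Hk2 (1.63), Pfkm (-1.19), Pgd (0.93) and Pfkfb3 (0.76). The Ldhb and Eno2 values rest on T cell levels below 4 CPM.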

How the results depend on the processing

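Counts of called members were recomputed under each alternative. With DESeq2 they were 10 in place of 19 for Ccdc101 KO with DMSO, 13 in place of 21 for Ccdc101 KO with TG (13 higher and 0 lower, with 17 and 2 at an unadjusted p below 0.05, where edgeR had 18 and 3), 8 in place of 15 for the interaction of TG and genotype in melanoma, and 2 in place of 4 between activated and labelled resting Atp2a2 KO cells. That last count was 7 without the filter, and 0 to 2 with a library left out. It was 0 without labelled resting replicate 2, 1 without labelled resting replicate 1 and 2 without either activated KO library. At an unadjusted p below 0.05 the first of these had 7 higher and 1 lower. All-gene shares at an unadjusted p were not computed. Leaving out a library gave 11 to 14 in place of 18 for Atp2a2 KO in activated T cells. Every other count of called members stayed within 1.5 times the value reported. Of 433 calls of single members 360 held under every alternative, 0 of 4823 recomputed values changed sign and 296 lost the threshold.

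The shared replicate numbers did not pair the libraries. Deviations of same-numbered libraries correlated at -0.08 to 0.03 over 6 pairs of melanoma groups and at -0.11 to 0.11 over 15 pairs of T cell groups. With a replicate block the counts of called members were 26 for TG in Ctrl melanoma, 27 in resting and 28 in activated T cells, against 27, 27 and 28 without it, and no count moved by over 1.5 times.

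Over all genes, DESeq2 called 1490 in place of 3218 genes for Ccdc101 KO with DMSO, 2073 in place of 3956 with TG, 598 in place of 1644 for the interaction, 3082 in place of 4986 for Atp2a2 KO in activated cells and 2629 in place of 4237 for labelled resting KO against activated Ctrl. Without KO TG replicate 2 the KO with TG had 2615, and without KO DMSO replicate 1 the interaction had 1090. Between the Atp2a2 KO groups 79 genes became 22 with DESeq2, 184 without the filter and 15 to 191 with a library left out. With DESeq2 37.0% of the calls for Ccdc101 KO with DMSO were higher, against 48.2%. Without the filter the share was 64.4% in place of 52.5% with TG, 70.5% in place of 54.6% for the interaction and 31.1% in place of 47.5% for labelled resting KO against activated Ctrl.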
